A study of Mus musculus with 4 samples.

Results

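Aminoacyl-tRNA synthetases are the enzymes that join each amino acid to its transfer RNA. A list of 36 synthetase genes was looked up by gene symbol among the 50600 genes of each deposited table, and all 36 were found. The list holds 20 genes for enzymes of the cytosol and 16 genes for mitochondrial enzymes, whose symbols end in 2. The genes were measured by RNA sequencing of mouse T-helper 2 cells, the CD4 T cells that make interleukins 4, 5 and 13. The 4 libraries form a single group of biological replicates from primary cells of the strain C57BL/6NJ, with no treatment given in the labels. Age is unknown and sex was not collected, per the labels. Each replicate has its own biosample but all carry the same donor label, so the p-values reflect only how far these libraries vary, and part of that may be technical. The labels name a protocol for differentiating CD4 T cells, and a time of 72 h stands in the file headers without an explanation.

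A synthetase first activates its amino acid with ATP and then passes it to the matching transfer RNA, so that the ribosome reads the right residue at each codon. Protein synthesis in mitochondria uses a second set of enzymes, which are encoded in the nucleus and imported. Activated T cells grow and divide quickly, and many cytosolic synthetase genes are known targets of the amino acid response factor ATF4.

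The libraries held 2388255 (replicate 1), 1929880 (replicate 3) and 1713199 (replicate 4) counts, while replicate 2 held 5016, which was 341.5-fold below the lowest of the others. Replicate 2 held 7 synthetase counts in 6 of the genes, and the values below come from replicates 1, 3 and 4 unless stated. The counts are of fragments on the annotated strand, with strand setting 1 per the file headers. The sources used here do not state whether that setting matches the strand kept by the library kit. Genes with opposite-strand exons, meaning exons that overlap those of another gene read in the opposite direction, made up 16.2% of all genes but held 90.7%, 94.2% and 91.3% of all counts in replicates 1, 3 and 4. The level of such a gene and that of its opposite neighbour therefore cannot be told apart with certainty. If the setting were opposite to the kit's strand, the counts of every synthetase gene, with or without opposite-strand exons, would be of fragments from the other strand and would not measure its mRNA. Counts on the turned strand were not analysed here, so every level below is a level on the annotated strand as the authors counted it. The Th2 markers Cd3e, Cd3g, Cd4, Trac, Il4, Il5, Il13 and Gata3 were all above 1 TPM (8 of 8), with summed counts of 559, 200 and 411 in replicates 1, 3 and 4. Among markers of other helper subsets, Ifng and Il17a had 0 counts and Tbx21 had a mean of 0.725 TPM, while Foxp3, which has opposite-strand exons, was above 1 TPM at 91.2 TPM. Markers of B cells, natural killer cells and red cells had 0 counts, those of myeloid cells had 1 count in all, and those of cytotoxic T cells summed to 3, 0 and 2.

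The sequence that ATF4 and its C/EBP partners recognise was searched in the promoters, because the synthetase genes are a classical group of its targets. The motif TGATGNAA was searched on both strands in windows of 250 bases before to 50 bases after each start site, taken from RefSeq on GRCm38.p6. Promoter windows were matched for 27 of the 36 genes, and 5 of those genes (18.5%) held the motif, beside 4.51% of the 27025 genes in the table. All 5 encode cytosolic enzymes. The 30 bases around the match are shown for 4 of them, 5′ to 3′ on the strand of the gene and with the match in capitals, so that the letters and their surroundings can be compared.
Gars: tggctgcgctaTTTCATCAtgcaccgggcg
Iars: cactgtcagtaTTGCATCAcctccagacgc
Tars: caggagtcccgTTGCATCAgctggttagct
Yars: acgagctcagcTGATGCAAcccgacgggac
The Gars stretch lies at chr6:55037960-55037989 and the Iars stretch at chr13:49682126-49682155, both on the + strand. The Tars stretch lies at chr15:11399655-11399684 on the - strand, and the Yars stretch at chr4:129189895-129189924 on the + strand. In Gars, Iars and Tars the match reads on the other strand than the gene, and in Yars on the same strand. A match is a description of these letters and not evidence of a bound site. All 5 genes were above 1 TPM in the test described next, as were 11 cytosolic genes without a match or without a window.

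Synthetase genes took 0.121% of all counts in replicate 1, with a Wilson 95% interval of 0.116 to 0.125%. Their share was 0.0846% in replicate 3, with bounds of 0.0806 and 0.0888%, and 0.116% in replicate 4, with bounds of 0.111 and 0.121%. Replicate 3 thus had the lowest share, and its interval did not overlap those of the other libraries. These intervals cover counting error only. In bulk samples, fewer cells of a type and less RNA per cell cannot be told apart. Counts were divided by exonic length and scaled to TPM, the usual per-length unit of transcript abundance. Every gene was then compared with a level of 1 TPM by limma, on log2(TPM + 0.1). By this test 20 of the 36 genes were above 1 TPM, against a background of 43.1% of all 14282 genes tested. Another 3 members were below 1 TPM, against a background of 8.31%, and 13 were undecided. The median of the members lay 1.33 above 1 TPM on the log2 scale, and that of all genes tested lay 0.77 above it.

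Cytosolic enzymes made up most of the genes above 1 TPM. Of the 20 cytosolic genes, 16 were above 1 TPM, none was below and Eprs, Wars, Dars and Farsa were undecided. Of the 16 mitochondrial genes, Hars2, Fars2, Iars2 and Ears2 were above, Nars2, Wars2 and Cars2 were below, and 9 were undecided. The median level of the cytosolic genes was 5.72 TPM in replicate 1, 1.80 in replicate 3 and 6.85 in replicate 4, beside 0.980, 0.546 and 1.05 TPM for the mitochondrial genes. The mean log2(TPM + 1) of the cytosolic genes exceeded that of the mitochondrial genes by 1.27, 0.50 and 1.23 in replicates 1, 3 and 4, a difference of 1.00 ± 0.43 (SD, n = 3). The difference was positive in every one of the 3 libraries, but it was -0.35 among members with a mean of 1 TPM or more, a set that leaves out most mitochondrial genes. Between the 14 cytosolic and 10 mitochondrial genes without opposite-strand exons it was 1.81, 0.92 and 1.57, which the strand setting bears on as well. The call of being above 1 TPM depended on the libraries for some genes: without replicate 1, Aars, Cars, Ears2 and Yars lost it, and without replicate 4, Aars, Cars and Yars lost it. Without replicate 3, 24 genes were above, with Dars, Eprs, Lars2 and Wars gained.

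**Figure D1:**
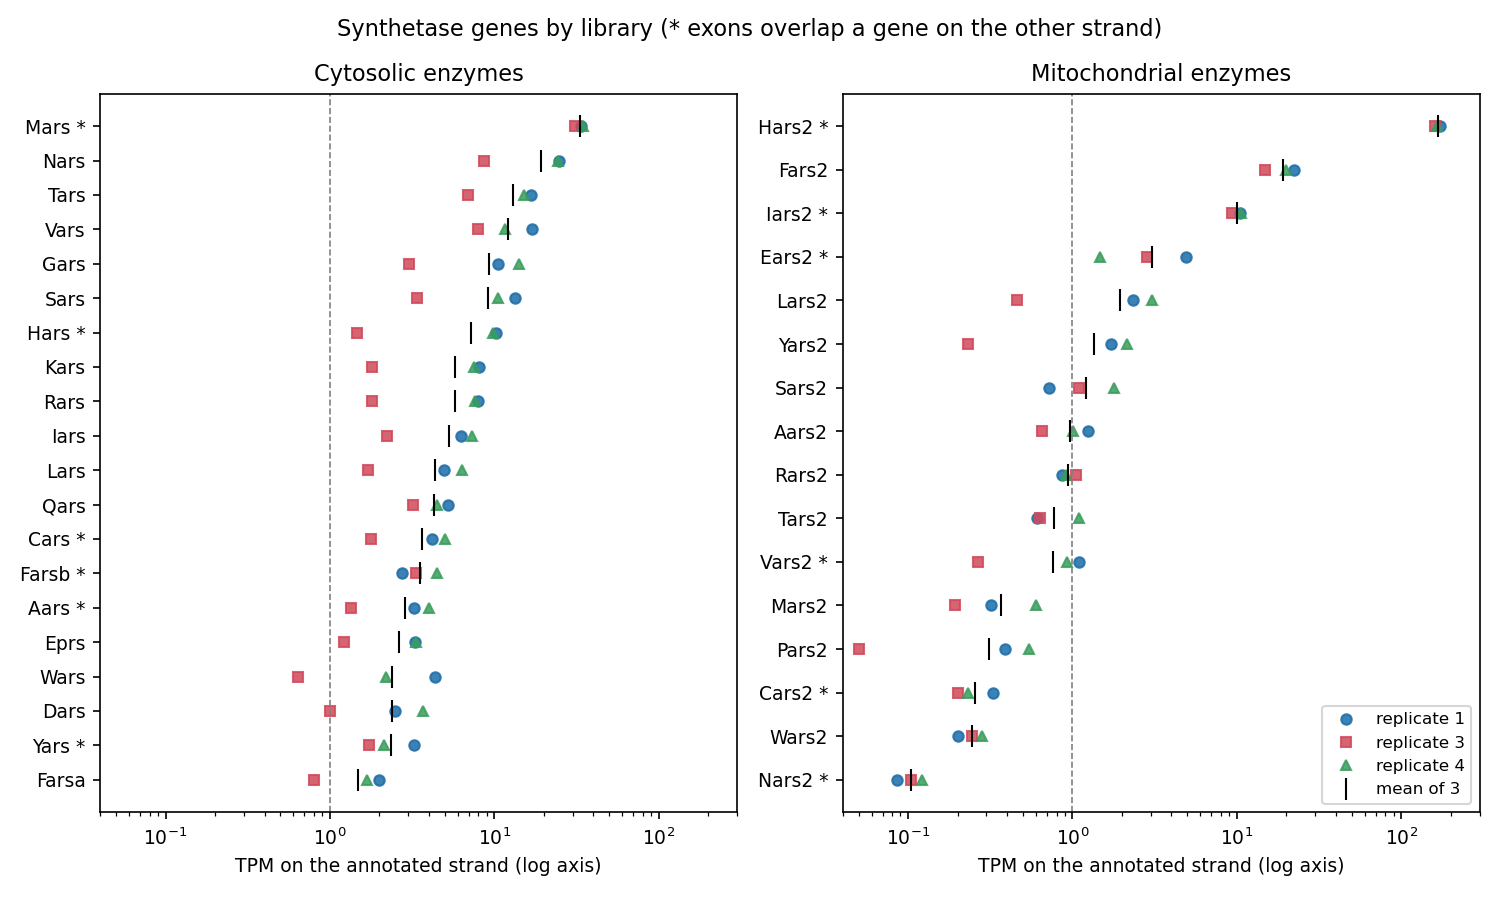
Levels of the 36 synthetase genes in TPM on a log axis, with cytosolic enzymes on the left and mitochondrial enzymes on the right, 1 symbol per library and a bar at the mean of 3. A star marks genes with opposite-strand exons, the dashed line marks 1 TPM, and the 0 TPM of Pars2 in replicate 3 is drawn at the left edge. Hars2 stands at 166 TPM, above Mars at 33.1 TPM, and replicate 3 is the lowest library for most cytosolic genes.

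As counted on the annotated strand, the synthetase gene with the highest level was Hars2, which encodes the mitochondrial histidyl-tRNA synthetase (chromosome 18, 36783008 to 36792562, + strand, mm10). It had 1227, 941 and 842 counts, or 172, 161 and 166 TPM, in replicates 1, 3 and 4, with a mean of 166 ± 5.58 TPM (SD, n = 3). The 3 libraries were close together, with a coefficient of variation of 3.36%. Hars2 alone took 42.6%, 57.7% and 42.4% of all synthetase counts in replicates 1, 3 and 4. None of the 50-base stretches of its annotated transcripts was found in the same orientation in another gene's transcripts. That search did not cover the other strand, where Hars2 and Hars overlap by 195 bases. Because Hars2 and Hars are each other's neighbours on opposite strands, this rank is known only for the strand setting used. The other mitochondrial genes ranged from 0.104 TPM for Nars2 to 19.0 TPM for Fars2.

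Fars2, the single-chain phenylalanyl-tRNA synthetase of mitochondria, had 79, 43 and 50 counts, or 22.3, 14.8 and 19.8 TPM. Replicate 3 was lowest, and the mean was 19.0 ± 3.82 TPM (SD, n = 3). Fars2 is without opposite-strand exons, but the gene Lyrm4 lies on the other strand 54 bases away, with 3, 0 and 1 counts. Iars2, the mitochondrial isoleucyl enzyme, had 154, 113 and 111 counts and a steadier level of 10.4, 9.28 and 10.5 TPM. Ears2, which charges mitochondrial transfer RNAs with glutamate, had 42, 20 and 9 counts and was the only one of these 4 genes with its lowest level in replicate 4, at a mean of 3.06 ± 1.71 TPM.

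At the low end, Nars2 had 1 count in each of the 3 libraries, Wars2 had 2 in each, and Cars2 had 4, 2 and 2. Most of these values are under the floor of 3 counts, so no order among these genes can be read. With replicate 1, 3 or 4 left out, no member was below 1 TPM by limma, and 1, 2 and 2 members had an unadjusted p under 0.05. Few genes of any kind were called below with 2 libraries (0.411%, 0.0% and 2.13% of all genes tested). Pars2 had 2, 0 and 2 counts, and the 0 in replicate 3 allows up to 1.55 CPM. Lars2 with 43, 7 and 40 counts and Yars2 with 9, 1 and 8 counts were both lowest in replicate 3, and neither was decided against 1 TPM.

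Among cytosolic enzymes, Mars led on the annotated strand. It encodes the methionyl-tRNA synthetase, a member of the multisynthetase complex, in which several synthetases are held together by scaffold proteins. Mars (chromosome 10, 127296221 to 127311786, - strand, mm10) had 192, 145 and 141 counts, or 33.6, 30.9 and 34.7 TPM, with a mean of 33.1 ± 1.96 (SD, n = 3). Its 3 libraries differed little, with a coefficient of variation of 5.93%. Mars has opposite-strand exons, and the other 7 genes of the complex have none. The rank of Mars is therefore known only for the strand setting used. The other 7 genes of the complex were lower: Rars, Kars, Iars, Lars and Qars had means of 5.79, 5.80, 5.27, 4.34 and 4.30 TPM, and Eprs and Dars 2.61 and 2.38 TPM. The median level of the 8 genes of the complex was 5.72, 1.80 and 6.85 TPM in replicates 1, 3 and 4, and that of the 12 cytosolic genes outside it was 7.29, 2.41 and 7.38 TPM.

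Outside the complex the highest was Nars, the asparaginyl enzyme, with 109, 31 and 76 counts, or 24.8, 8.60 and 24.4 TPM. Replicates 1 and 4 were alike for Nars, and replicate 3 was well below both. Tars and Vars, for threonine and valine, had means of 12.9 ± 5.27 and 12.1 ± 4.49 TPM. Gars, which serves cytosol and mitochondria from a single gene, and Sars, the seryl enzyme, had means of 9.22 ± 5.63 and 9.10 ± 5.14 TPM. In all 4 of these genes the libraries' SD was more than the gap to the next gene in the order, so Tars and Vars, and likewise Gars and Sars, did not differ beyond their spread. The lowest cytosolic gene was Farsa, a subunit of the cytosolic phenylalanyl enzyme, with 15, 5 and 9 counts and 1.49 ± 0.609 TPM, and the other subunit, Farsb, had 12, 12 and 14 counts and 3.53 ± 0.897 TPM. Synthetases fall into 2 structural classes of unrelated fold. Leaving out Eprs, which carries an enzyme of each, the median of the genes' mean levels was 2.73 TPM in class I (18 genes) and 3.53 TPM in class II (17 genes).

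Each mitochondrial gene was set beside the cytosolic gene of the same amino acid, which gave 17 pairings. The cytosolic gene had the higher TPM in all 3 libraries in 11 pairings, the mitochondrial gene did in 4, and the order was mixed for Eprs with Ears2 and for Yars with Yars2. The 4 pairings with a higher mitochondrial gene were Hars with Hars2, Iars with Iars2, and Farsa and Farsb with Fars2. Hars, for histidine, had 10.2, 1.47 and 9.76 TPM in replicates 1, 3 and 4. Hars2 had 172, 161 and 166 TPM, far above Hars in each, and the ratio was by far the largest in replicate 3. Pooled ratios and their intervals, here and below, leave out such spread between libraries. On the annotated strand and per exonic base the pooled counts of Hars2 were 22.9 times those of Hars (exact 95% interval 17.8 to 30.0, counting error only). The counts of Fars2 were 12.7 times those of Farsa (8.51 to 19.5) and 5.58 times those of Farsb (3.91 to 8.15), and those of Iars2 were 1.92 times those of Iars (1.55 to 2.38).

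In the other direction, Mars had 92.8 times the counts per base of Mars2 (exact 95% interval 57.3 to 161), and Nars 191 times those of Nars2 (64.4 to 931), a value that rests on 3 counts of Nars2. Tars stood 17.5-fold over Tars2 (11.1 to 28.7) and Vars 16.0-fold over Vars2 (9.96 to 27.4). The gaps were smaller for leucine, where Lars stood 2.24-fold over Lars2 (1.61 to 3.09), and for alanine, where Aars stood 2.86-fold over Aars2 (1.63 to 5.40).

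**Figure D2:**
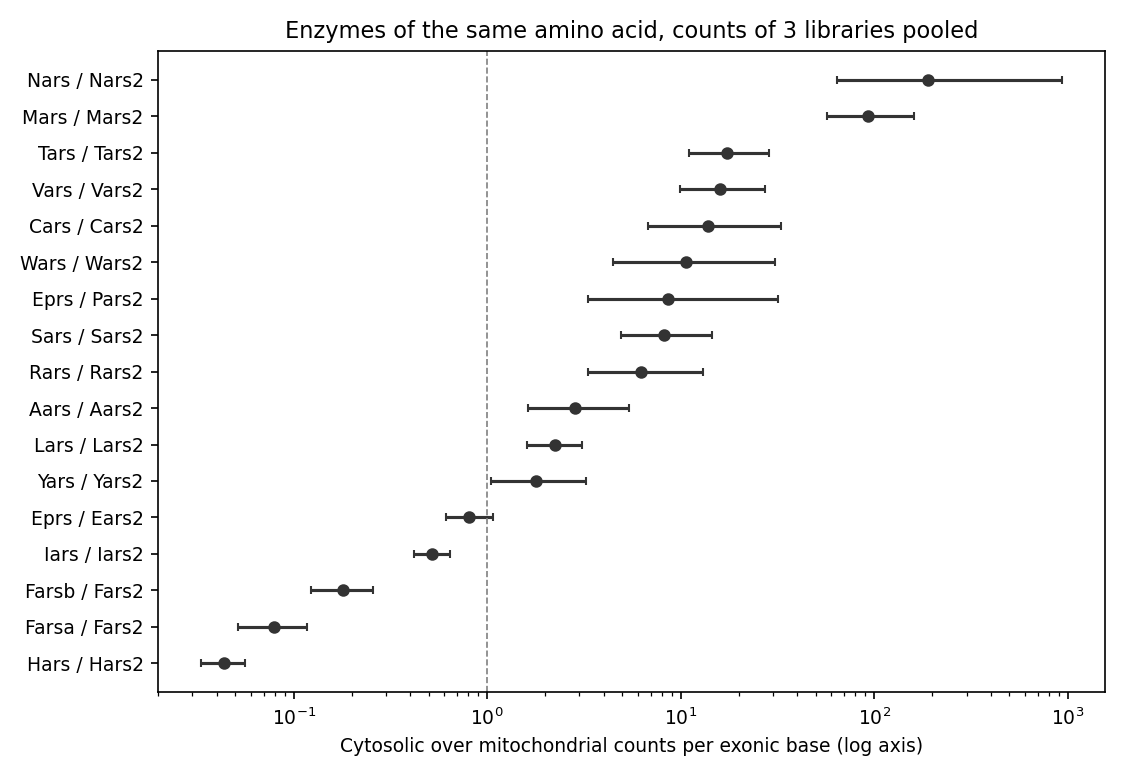
Ratio of the cytosolic to the mitochondrial gene of the same amino acid, as counts of replicates 1, 3 and 4 pooled and divided by exonic length, on a log axis. Bars are exact 95% intervals of the counting error, and the dashed line marks equal density. Nars over Nars2 is at the top with 191, and Hars over Hars2 is the lowest pairing.

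Opposite-strand exons were present in 12 of the 36 synthetase genes (33.3%), beside 22.1% of the protein-coding genes and 16.2% of all genes in the files. They were 6 cytosolic genes (Farsb, Yars, Cars, Aars, Mars and Hars) and 6 mitochondrial ones (Iars2, Nars2, Ears2, Cars2, Vars2 and Hars2). These 12 genes held 62.6%, 78.9% and 62.9% of the synthetase counts in replicates 1, 3 and 4. Hars and Hars2 lie head to head and overlap each other by 195 bases at their 5′ ends, so each is the opposite partner of the other. With Iars2, which has 2 partners, there were 12 pairs, and each was tested with edgeR's quasi-likelihood method on counts corrected for exonic length and library size.

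With Hars2 taken only as the partner of Hars, the partner on the other strand was denser in 8 of the 12 pairs. The background was 61.6% of 4097 cases. A case was a protein-coding gene in a tested pair, so a pair of such genes counted in both directions, unlike Hars with Hars2 here. Counted in this way, the synthetase gene was denser in 1 pair, against a background of 29.3% of the cases, and 3 pairs were undecided. The median of partner minus gene was 2.39 on the log2 scale over the 12 pairs and 2.66 over the 4097 cases. The values are over each whole gene, inside and outside the overlap.

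The widest gaps were at mitochondrial genes of few counts. Gm20483 overlaps the 3′ end of Vars2, the mitochondrial valyl enzyme, by 465 bases and had 263, 208 and 209 counts, while Vars2 had 10, 2 and 6. The density of Gm20483 was 7.91 ± 0.39 higher on the log2 scale (SE, edgeR adjusted p = 7.55e-07). Naxd, which encodes a repair enzyme for hydrated NADH and NADPH, overlaps the 3′ end of Cars2 by 422 bases and had 338, 270 and 236 counts against 4, 2 and 2 for Cars2. Its density was 7.27 ± 0.33 higher (edgeR adjusted p = 5.99e-07). C230038L03Rik overlaps the 5′ end of Nars2 by 284 bases and had 135, 77 and 98 counts against 1 in each library for Nars2, a difference of 7.19 ± 0.44 (edgeR adjusted p = 1.76e-06). In these 3 pairs every library showed the partner above the synthetase gene, with no overlap of the values.

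Hars had 34, 4 and 23 counts against 1227, 941 and 842 for Hars2, and Hars2 was 4.64 ± 0.47 denser on the log2 scale (edgeR adjusted p = 2.95e-05). Ddit3, which encodes the stress transcription factor CHOP, overlaps the 3′ end of Mars by 68 bases. Ddit3 had 335, 274 and 201 counts and was denser than Mars by 1.74 ± 0.21 (edgeR adjusted p = 9.20e-05), in each of the 3 libraries. C77080 overlaps the 3′ end of Yars, the tyrosyl enzyme, by 30 bases. It had 129, 101 and 65 counts against 32, 14 and 15 for Yars and was denser by 2.34 ± 0.32 (edgeR adjusted p = 0.000179).

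In 3 pairs a short gene lies within the span of the synthetase gene and overlaps its exons wholly or in part. Gm24103, annotated as a microRNA gene of 77 bases within the exons of Aars, had 8, 8 and 19 counts against 50, 17 and 44 for the whole of Aars, and was denser by 5.25 ± 0.50 per base (edgeR adjusted p = 2.01e-05). 2010103J01Rik, with 388 exonic bases of which 114 overlap exons of Iars2, had 36, 24 and 30 counts. It was denser than Iars2 by 2.44 ± 0.27 (edgeR adjusted p = 5.50e-05). These 2 differences are per base: in plain counts the synthetase gene was higher, by 1.64 for Aars and 2.07 for Iars2 on the log2 scale without the length correction. Gm15580, with 211 of its 556 bases over exons of Cars, had 6, 2 and 2 counts. It was not told apart from Cars per base (0.22 ± 0.54, edgeR adjusted p = 0.708).

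Hars2, itself a synthetase gene denser than its partner Hars, is left out of the count by being taken only as a partner. Among the pairs as counted, Ears2 was the only synthetase gene called denser. Ubfd1, which overlaps the 5′ end of Ears2 by 89 bases, had 28, 16 and 11 counts, and Ears2 exceeded its density in every library. The partner minus gene difference was -1.18 ± 0.36 (edgeR adjusted p = 0.0148), and this call was lost without replicate 1 and without the length correction. The remaining pairs were undecided. Iars2 and Rab3gap2, which overlap by 2034 bases at their 3′ ends, had 154, 113 and 111 against 153, 141 and 138 counts, with a difference of -0.08 ± 0.22. Farsb and Sgpp2 had 12, 12 and 14 against 27, 12 and 19 counts, with a difference of -0.04 ± 0.40. For both, the ranges of the densities of gene and partner overlapped.

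**Figure D3:**
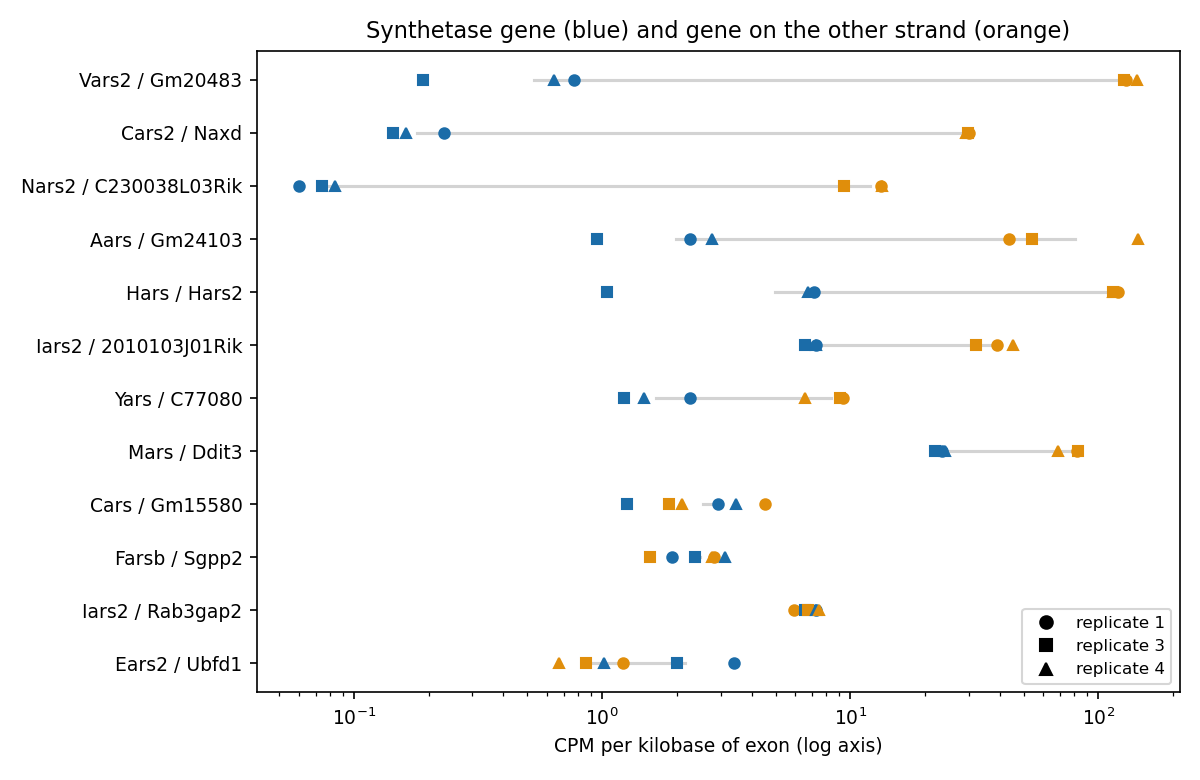
CPM per kilobase of exon, on a log axis, of synthetase genes (blue) and of the gene whose exons overlap on the other strand (orange), 1 symbol per library, with a grey line between the means. The pair with Vars2 has the widest gap, 7.91 on the log2 scale, and Ears2 at the bottom was called denser than its partner. Hars2 is drawn only as the partner of Hars.

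The 24 synthetase genes without opposite-strand exons can still have a close neighbour on the other strand. For 7 of them the nearest lay outside the gene and within 250 bases. Orc3, an origin recognition subunit gene, lies 13 bases from Rars2 and had 150, 137 and 100 counts, while Rars2 had 4, 4 and 3. The neighbours of the other 6 of these genes (Fars2, Kars, Wars, Sars2, Eprs and Mars2) had at most 13 counts in any of the 3 libraries. Another 3, Sars, Lars and Wars2, span a gene of the other strand without touching its exons. The one in Sars (Gm22942) and the one in Lars (Rps19-ps4) had 0 counts, and the nearest to Wars2 (Gm18982) had 1, 0 and 0. On the same strand, Exosc6 lies wholly within the exons of Aars over 1326 bases and had 0 counts in all libraries, and 13.5% of the 50-base stretches of Aars transcripts are shared with it. Since every exonic base of Exosc6 also lies in Aars, its 0 counts do not show that it was silent. For Iars 7.15% of such stretches are shared, with Gm4849. The counts of Aars and Iars from these stretches are thus uncertain, to a degree that was not measured.

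Many synthetase genes had their lowest level in replicate 3. Each library was set against the other 2 with edgeR's quasi-likelihood test over the 6922 genes with a mean count of 10 or more, of which 24 were synthetase genes. In replicate 3, 10 of the 24 were lower, against a background of 12.4%, and 0 were higher, against 2.79%. In replicate 1, 0 of the 24 were lower, against a background of 0.0%, and 0 were higher, against 0.0289%. In replicate 4, 0 were lower, against 0.0289%, and 0 were higher, against 0.0144%. In replicates 1 and 4 no synthetase gene had an unadjusted p under 0.05 by edgeR or by DESeq2. With a lone library in an arm, a gene's own spread comes only from the other 2 libraries. The edgeR fit draws that spread toward a trend over all genes tested. The test compares libraries, assumes that the lone library varies like the others, and does not show a difference between conditions.

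The genes lower in replicate 3 were Hars, Lars2, Wars, Kars, Rars, Gars, Sars, Iars, Nars and Eprs. Hars had 10.2, 1.47 and 9.76 TPM in replicates 1, 3 and 4 and fell by 2.57 ± 0.69 in replicate 3 on the log2 scale (edgeR adjusted p = 0.00455). Sars fell by 1.65 ± 0.38 (edgeR adjusted p = 0.000711), from 115 and 64 counts in replicates 1 and 4 to 24. Gars, with 55 and 52 counts in replicates 1 and 4 and 13 in replicate 3, fell by 1.83 ± 0.48 (edgeR adjusted p = 0.00388). In all 3 genes the count in replicate 3 was below both others. The smallest change called was that of Eprs, the fused glutamyl and prolyl enzyme, at -1.29 ± 0.37, and Wars was nearest to the threshold (edgeR adjusted p = 0.0488). With DESeq2 in place of edgeR, Eprs, Sars, Gars, Kars, Iars and Nars lost the call, at -1.18, -1.54, -1.74, -1.85, -1.35 and -1.24. DESeq2 gave no adjusted p for Hars, Lars2, Rars and Wars, so it could not call them. DESeq2 called a far smaller share of all genes lower in replicate 3 than edgeR did, so lost calls were general and not particular to synthetase genes. For the genes that DESeq2 could call, the result in replicate 3 thus depends on the tool. With RLE size factors in place of TMM scaling, edgeR called 8 of the 24, beside 5.48% of all genes lower and 3.06% higher, and 19 rather than 21 of the 24 were negative.

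Fold changes in replicate 3 moved with strand class. The 15 synthetase genes without opposite-strand exons were all negative, with a median of -1.44 and 9 called lower, and the 9 with opposite-strand exons had a median of -0.07 with 1 called lower. Over all genes tested the medians were -0.82 without and 0.12 with opposite-strand exons, and 22.0% and 4.82% were called lower. Hars2, Mars, Iars2 and Farsb, all with opposite-strand exons, stood at 0.09, 0.02, -0.01 and 0.09, while Aars and Cars of the same class stood at -1.25 and -1.19 without passing the test. When the 3060 genes without opposite-strand exons were scaled and tested alone, an alternative chosen after seeing the data, 157 genes but 0 of the 15 synthetase genes were called in replicate 3 by edgeR, and 2 of the 15 had an unadjusted p under 0.05. In that fit 12 of the 15 were negative. The part of the strand class in the lower levels was not tested further. The median coefficient of variation over the 3 libraries was 29.7% for the 12 synthetase genes with opposite-strand exons and 49.6% for the 24 without.

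**Figure D4:**
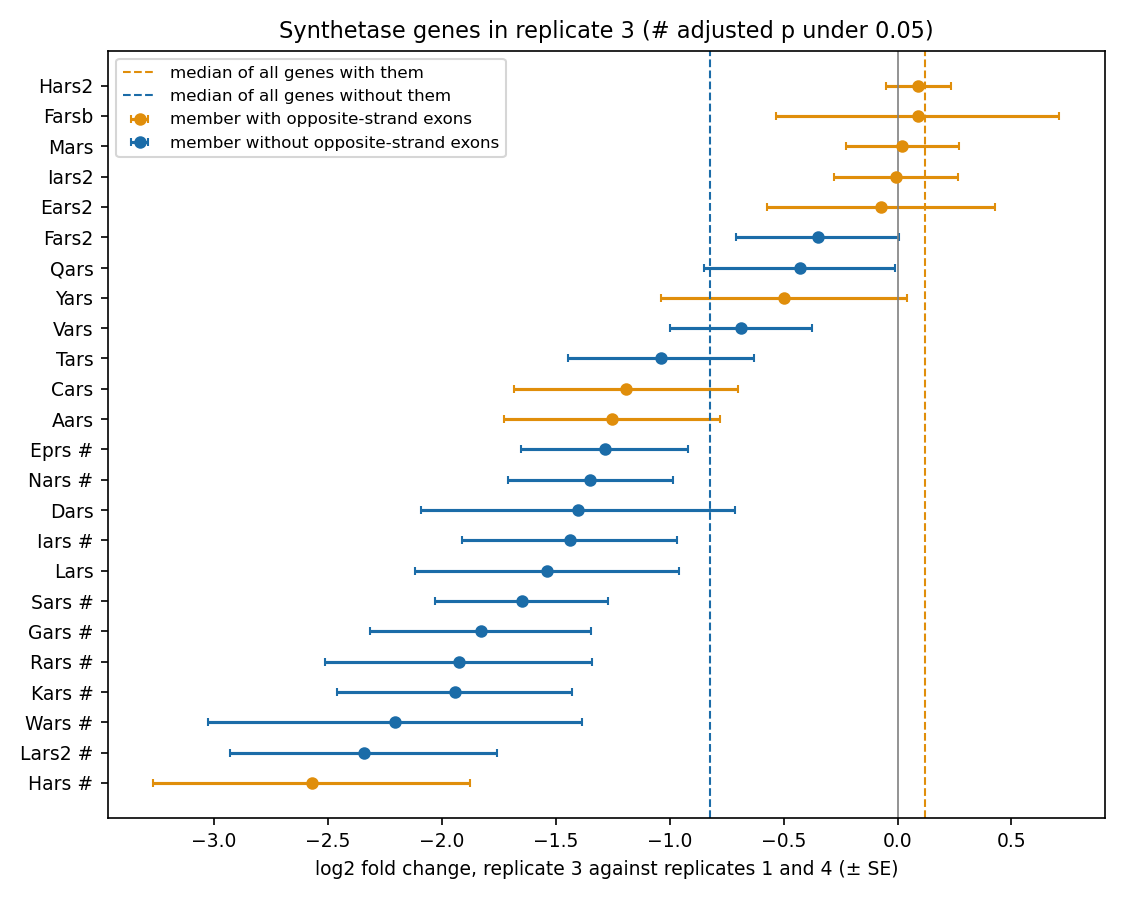
Log2 fold change of replicate 3 against replicates 1 and 4 for the 24 synthetase genes tested, with SE from edgeR, coloured by strand class. Dashed lines are the medians of all genes of each class (-0.82 without and 0.12 with opposite-strand exons), and # marks an adjusted p under 0.05. All 15 genes without opposite-strand exons lie left of 0.

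Genes that work beside the synthetases ranged widely in level. Of 16 genes for synthetase partners and other steps of tRNA charging, 5 were above 1 TPM, 1 (Sepsecs, 2, 0 and 1 counts) was below and 10 were undecided. Over all genes tested, 43.1% were above 1 TPM and 8.31% below. The highest was Pstk, the kinase that makes phosphoseryl-tRNA on the way to selenocysteine, with 1472, 1134 and 1024 counts and 108 ± 3.45 TPM (SD, n = 3). Gatc, a subunit of the enzyme that makes mitochondrial glutaminyl-tRNA from the product of Ears2, had 56.4 ± 2.99 TPM. Its partner subunits Qrsl1 and Gatb had 1.29 and 0.765 TPM and were undecided. The scaffold genes of the multisynthetase complex were unequal, with Aimp2 at 54.2 ± 2.60 TPM, Aimp1 at 6.71 ± 0.956 TPM and Eef1e1, undecided, at 5.94 ± 4.55 TPM. Of the 5 genes above 1 TPM, 4 (Pstk, Aimp1, Aimp2 and Yrdc) have opposite-strand exons. How often genes of that class pass 1 TPM over all genes was not computed, so nothing about these helpers follows from the count.

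Of 25 genes known as ATF4 targets or members of the amino acid response, 16 were above 1 TPM, 1 (Slc7a11) was below, 6 were undecided and 2 were not tested. The shares over all genes tested were 43.1% above and 8.31% below. All 6 genes of this list with opposite-strand exons were among those above. The share above 1 TPM over all genes of that class was not computed, so this count is not a result about the list. The highest were Psph, the last enzyme of serine synthesis, at 292 ± 18.5 TPM and Atf5 at 193 ± 9.60 TPM, both with opposite-strand exons. Atf4 itself, which has none, had 96, 27 and 71 counts and 26.5 ± 13.1 TPM, lowest in replicate 3. The amino acid transporter genes Slc3a2 and Slc7a5 had 21.1 ± 1.99 and 7.24 ± 3.28 TPM. Asns, the asparagine synthetase gene and a textbook ATF4 target, had 21, 2 and 16 counts and was undecided against 1 TPM.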

How the data were processed

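Raw counts of fragments per gene were deposited by the authors, made with featureCounts 1.4.6-p4 (exons, both mates mapped, strand setting 1) from STAR alignments to mm10 with GENCODE vM13, per the file headers. Exonic lengths are those of the files. Names came from GENCODE vM21 (50376 of 50600 identifiers matched). TPM was computed from counts and lengths with Python 3.11.15, pandas 2.3.3 and numpy 2.4.6, and overlaps with bedtools 2.31.1. Levels were compared with 1 TPM by limma 3.58.1 (log2(TPM + 0.1)), for genes with a mean count of 1 or more. Pairs (30 counts or more, library as a block) and lone libraries (TMM, mean count of 10 or more) went through edgeR 4.0.16's quasi-likelihood test, with DESeq2 1.42.0 as an alternative, in R 4.3.3. P-values were adjusted by Benjamini-Hochberg over all genes or pairs, at 0.05. The functions were tested on simulated data. Depth was 1713199 to 2388255 counts in the 3 libraries used, so 3 counts are 1.26 to 1.75 CPM. Members and lists were chosen with earlier results of these data known. Named genes are all members, their opposite-strand partners with 10 counts or more, the list genes past the test against 1 TPM and the cell type markers. A few results that this rule covers are not reported here. Other names (neighbours within 250 bases, Exosc6, Gm4849, undecided list genes) were chosen after their values were seen. Alternatives were other pseudocounts, filters, scalings, overlaps and levels, and leaving out each library.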

Additional observations from a re-analysis of the deposited data

How the results depend on the processing

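Among values of single genes and pairs, 555 kept their direction and call under the alternatives, 48 lost the call, 10 gained it and 38 changed sign, nearly all of them values that had not passed the test. With the 4 libraries together, 3 synthetase genes were above 1 TPM, where 14.0% of all genes were. On the log2 scale against 1 TPM, Yars, Dars, Sars2, Lars2, Wars and Yars2 then stood at -0.030, -0.11, -0.74, -0.44, -0.24 and -0.86, and Mars2 at 0.17. Against 5 TPM in place of 1 TPM, 7 were above and 14 below (25.2% and 53.3% of all genes), by the construction of the setting. The count below 1 TPM was 5 with a pseudocount of 1, 1 without a filter, 0 with each library left out, and 0 with a mean count of 10 or more, where the filter removes the low genes (0 at an unadjusted p under 0.05 by limma). With a library left out, the level against 1 TPM ranged from -0.50 to 0.87 for Yars2, -0.84 to 0.011 for Vars2, -0.27 to 0.15 for Aars2 and -0.15 to 0.45 for Sars2. Yars2 stood at -0.0056 with TMM-scaled totals.

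The cytosolic minus mitochondrial difference was 1.74 with a pseudocount of 0.1, 1.43 among genes without opposite-strand exons, 1.52 as a difference of medians and -0.35 among genes with a mean of 1 TPM or more. The counts of pairs that follow take Hars2 only as the partner of Hars. With overlaps of 100 bases or more, 5 synthetase genes were below and 0 above their partner by edgeR. Without the length correction 3 were above, and 2010103J01Rik minus Iars2, Gm15580 minus Cars and Gm24103 minus Aars were -2.07, -3.30 and -1.64, Sgpp2 minus Farsb 0.57 and Rab3gap2 minus Iars2 0.21. The count above the partner ranged from 0 to 1 with each library left out. Over the same settings Sgpp2 minus Farsb ranged from -0.37 to 0.20, Rab3gap2 minus Iars2 from -0.14 to 0.035 and Gm15580 minus Cars from -0.17 to 0.60, and with 4 libraries Sgpp2 minus Farsb was 0.0080.

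In replicate 3, DESeq2 called few genes of any kind, and the synthetase genes for which it gave an adjusted p were not called by it. Those without opposite-strand exons were not called when genes of that class were tested alone. Iars2 in replicate 3 stood at 0.099 with DESeq2, 0.10 with RLE size factors, 0.074 without a filter and 0.015 with 4 libraries, and Ears2 at 0.039 with RLE size factors and 0.0039 without a filter. In replicate 1, Dars stood at -0.025 with DESeq2 and -0.026 with RLE size factors, and with 4 libraries Iars2 stood at 0.0023 and Hars2 at 0.049. In replicate 4, Iars2, Qars, Mars and Fars2 stood at -0.040, -0.031, -0.034 and -0.027 without a filter, and Hars2 at 0.041 with 4 libraries. The causes were not tested, apart from the filter and the level named. Leaving out a library was not possible for the lone-library test, which would compare 1 library with 1. No paired analysis was possible because the libraries form a single group. At these depths genes under 3 counts per library cannot be ordered.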
